A study of Mus musculus with 9 samples.

Results

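The conjugating and non-P450 drug-metabolizing enzymes of mouse liver were taken as the genes of 5 kinds of enzyme, chosen by symbol: the UDP-glucuronosyltransferases (Ugt1, Ugt2 and Ugt3), the sulfotransferases (Sult, without Sult1e1), the flavin monooxygenases (Fmo), the carboxylesterases (Ces) and the aldehyde oxidases (Aox). A gene entered with the mean of the probe sets to which the array annotation gives its symbol and no other, which gave 50 members of the 19938 genes measured. They are 8 Ugt2, 2 Ugt3, 15 Sult, 5 Fmo, 16 Ces and 4 Aox genes. No Ugt1 gene had a probe set with its symbol alone. RNA of whole liver was hybridized to 9 arrays (Affymetrix Mouse Gene 1.0 ST), 3 in each of 3 groups, to ask how tauroursodeoxycholic acid (TUDCA), a taurine-conjugated bile acid, acts on the fatty liver of ob/ob mice. All mice were males of 6 weeks at the start, ate normal chow ad libitum, were gavaged 2 times a day for 3 weeks and were killed after 8 h of fasting. The OB-TUDCA group was ob/ob mice of strain B6.V-Lepob/J given 500 mg/kg TUDCA at each gavage. The OB-control group was ob/ob mice of the same strain given tap water, and the N-control group was wildtype C57BL/6J mice given tap water. Mice with the ob/ob genotype lack leptin in every tissue from birth on, so OB-control against N-control compares genotypes and not only livers with and without fat, and there was no group of wildtype mice on TUDCA.

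These enzymes make foreign compounds, steroids, bile acids and bilirubin easier to excrete. Ugt enzymes sit in the endoplasmic reticulum and join a sugar, mostly glucuronic acid from UDP-glucuronic acid, to their substrates, while Sult enzymes of the cytosol transfer sulfate from PAPS. Fmo enzymes oxygenate nitrogen and sulfur atoms with the help of a flavin, Ces enzymes cleave esters and amides and in liver also the esters of stored lipids, and Aox enzymes oxidize aldehydes and nitrogen heterocycles with a molybdenum cofactor.

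Signals are RMA values on the log2 scale, so a difference of 1 is a doubling. The signals of different genes come from different probes, so no result rests on the order of their levels. Group means were compared by limma (two-sided) over all 9 arrays together, with Benjamini-Hochberg adjustment over the 19938 genes, and a gene was called higher or lower where the adjusted p was under 0.05. The 3 comparisons share arrays, so their values are given side by side. As the samples are whole liver, fewer cells of a type and less RNA per cell cannot be told apart.

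Array medians lay between 4.50 and 4.58, and Pearson r across probe sets was 0.981 to 0.990 within groups and 0.976 to 0.987 between groups. The 7 measured hepatocyte markers averaged 12.43 to 12.49 on OB-TUDCA arrays, 12.39 to 12.49 on OB-control arrays and 12.58 to 12.62 on N-control arrays, so the label of liver was met. N-control replicate 2 stood apart. The 12 measured pancreatic acinar markers averaged 10.85 on it and 4.01 to 4.59 on the other 8 arrays, and values without it are given below for every member called. The 6 stellate cell markers averaged 6.28 to 6.61 on OB-TUDCA, 6.28 to 6.35 on OB-control and 6.06 to 6.21 on N-control arrays. The 6 sinusoidal endothelial markers averaged 7.42 to 7.52 on OB-TUDCA, 7.26 to 7.55 on OB-control and 7.38 to 7.49 on N-control arrays, and of them Lyve1 was called higher and Kdr and Oit3 lower in OB-TUDCA than in N-control mice. The 4 measured cholangiocyte markers averaged 4.9999 to 5.23 on OB-TUDCA, 4.68 to 4.91 on OB-control and 4.75 to 5.25 on N-control arrays, and all 4 had a higher mean in OB-TUDCA relative to OB-control mice. The 7 macrophage markers averaged 7.07 to 7.66 on OB-TUDCA, 6.97 to 7.33 on OB-control and 6.98 to 7.27 on N-control arrays. The part of these cell types in the results below was not tested.

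The Ugt2b genes lie together on chromosome 5, and most of them had lower signals in both ob/ob groups than in N-control mice. The sequence before their start sites is shown because all 7 measured Ugt2b genes share an element there. Each line holds the 100 bases before the RefSeq start site on the gene's own strand, 5′ to 3′, from assembly GRCm38.p6. Capitals mark an inverted repeat, GTTA and TAAC with 5 bases between them, and the nuclear receptor half-site AGGTCA.

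Ugt2b1: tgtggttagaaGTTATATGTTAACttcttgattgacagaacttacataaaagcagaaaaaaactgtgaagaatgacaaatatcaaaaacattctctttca
Ugt2b34: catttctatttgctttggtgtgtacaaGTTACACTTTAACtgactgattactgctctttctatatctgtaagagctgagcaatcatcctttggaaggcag
Ugt2b35: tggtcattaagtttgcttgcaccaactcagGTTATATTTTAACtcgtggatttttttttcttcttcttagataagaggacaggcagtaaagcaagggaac
Ugt2b36: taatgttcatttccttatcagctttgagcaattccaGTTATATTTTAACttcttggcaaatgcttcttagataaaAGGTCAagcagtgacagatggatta
Ugt2b37: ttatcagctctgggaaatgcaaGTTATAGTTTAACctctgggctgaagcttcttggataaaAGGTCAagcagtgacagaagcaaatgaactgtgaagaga
Ugt2b38: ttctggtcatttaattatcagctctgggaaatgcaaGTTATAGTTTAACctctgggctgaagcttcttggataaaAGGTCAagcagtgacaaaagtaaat
Ugt2b5: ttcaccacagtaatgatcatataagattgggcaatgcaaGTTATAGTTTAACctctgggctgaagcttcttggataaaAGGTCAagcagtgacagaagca

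On the plus strand lies the window of Ugt2b35 (chr5:87000760-87000859). The minus strand holds those of Ugt2b1 (chr5:86926504-86926603), Ugt2b34 (chr5:86906938-86907037), Ugt2b36 (chr5:87092556-87092655), Ugt2b37 (chr5:87254789-87254888), Ugt2b38 (chr5:87424204-87424303) and Ugt2b5 (chr5:87140341-87140440). The repeat begins between positions -89 and -61 relative to the start site. Its arms are the outer bases of the palindrome that HNF1 factors, which act in hepatocytes, are known to bind. It was singled out after the sequences had been seen. On either strand of the 250 bases before a start, it was present in 8 of the 43 members with a window, namely the 7 Ugt2b genes and Ugt3a1, and in 0.307% of all 32851 windows. AGGTCA was present in 5 of the 7 Ugt2b genes (Ugt2b35, Ugt2b36, Ugt2b37, Ugt2b38 and Ugt2b5), in 11 of the 43 members and in 14% of all windows. In Ugt2b36, Ugt2b37, Ugt2b38 and Ugt2b5 it begins between positions -39 and -22, and in Ugt2b35 it begins at position -215, outside the bases shown. The Ugt2b genes are copies of a common ancestor and their upstream bases are alike over long stretches, so the shared letters are not 7 separate occurrences. Ugt2b34, Ugt2b37 and Ugt3a1 carry the repeat too and were not called in any comparison. Ugt2b37 had a low mean signal of 4.74. Its OB-TUDCA arrays lay below its N-control arrays (log2 -0.48 ± 0.22 SE, adjusted p = 0.287), while those of Ugt2b34 and Ugt3a1 overlapped. A match of letters is a description and not a site in use.

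Further motifs were searched in the same windows of the 43 members. The HNF1 half-site GTTAAT (9 members, 6.43% of all windows), the TATA box TATAAA (10 members, 12.4%), the HNF4 half-site CAAAGT (7 members, 12.6%) and the STAT motif TTCNNNGAA (3 members, 7.02%) were in none of the Ugt2b windows. The same held for the core of the antioxidant response element TGANNNNGC (8 members, 35.2%), the core of the xenobiotic response element GCGTG (5 members, 28.2%) and the E-box CACGTG (1 member, 6.02%). FOXA (TGTTTAC) was found in 4 members, 3 of them Ugt2b genes, and 3.17% of all windows, and HNF6 (ATCAAT) in 3 members, among them Ugt2b1, and 6.72% of all windows. The C/EBP palindrome TTGCGCAA and the longer HNF4 motif CAAAGTCCA were in 0 members and in 0.164% and 0.384% of all windows.

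More of these enzymes had lower than higher signals in each comparison, and OB-TUDCA differed from OB-control mice by small amounts in most of them. Of the 50 members, 34 had a lower and 16 a higher mean under TUDCA than in OB-control mice, with a median difference of -0.10 against 0.01 over all genes. Only Ces1g was called, as lower, where 0.186% of all genes were called lower and 0.115% higher. No member was called higher. At an unadjusted p under 0.05, 1 member was higher (Fmo2) and 13 were lower (26%), where 6.26% of all genes were higher and 5.72% lower. All 3 OB-TUDCA arrays lay below all 3 OB-control arrays for 13 members (26%) and above them for 3, against 6.53% and 7.26% of all genes.

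In OB-control against N-control, 30 members had a lower and 20 a higher mean, with a median of -0.14 against 0.02 over all genes. Called lower were Ces3a, Ces3b, Sult2a8 and Ugt2b38 (0.492% of all genes were called lower), and called higher were Fmo5 and Sult3a1 (0.456% of all genes). At an unadjusted p under 0.05, 15 members were lower (30%) and 5 higher (10%), against 5.59% and 6.55% of all genes. The arrays of the groups did not overlap for 16 members (32%) that were lower and 5 that were higher, against 6.77% and 8.49% of all genes. OB-TUDCA mice differed from N-control mice in the most members. These groups differ in genotype and in treatment at once, and this comparison cannot tell the 2 apart. The mean was lower for 38 and higher for 12, with a median of -0.26 against 0.04 over all genes, and 11 were called lower (22%) and 1 higher (2%), against 1.89% and 1.35% of all genes. All 12 were among the 31 members with a mean signal of at least 5, as were 358 of the 377 genes called lower and 243 of the 269 called higher over the whole array, or 3.65% and 2.48% of the 9812 genes with such a signal. In those 31 the median difference was -0.22 for OB-TUDCA against OB-control, -0.26 for OB-control against N-control and -0.39 in OB-TUDCA against N-control, where all genes with such a signal had medians of 0.01, 0.01 and 0.03. In the other 19 it was 0.04, -0.01 and -0.04 in the same comparisons.

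**Figure D1:**
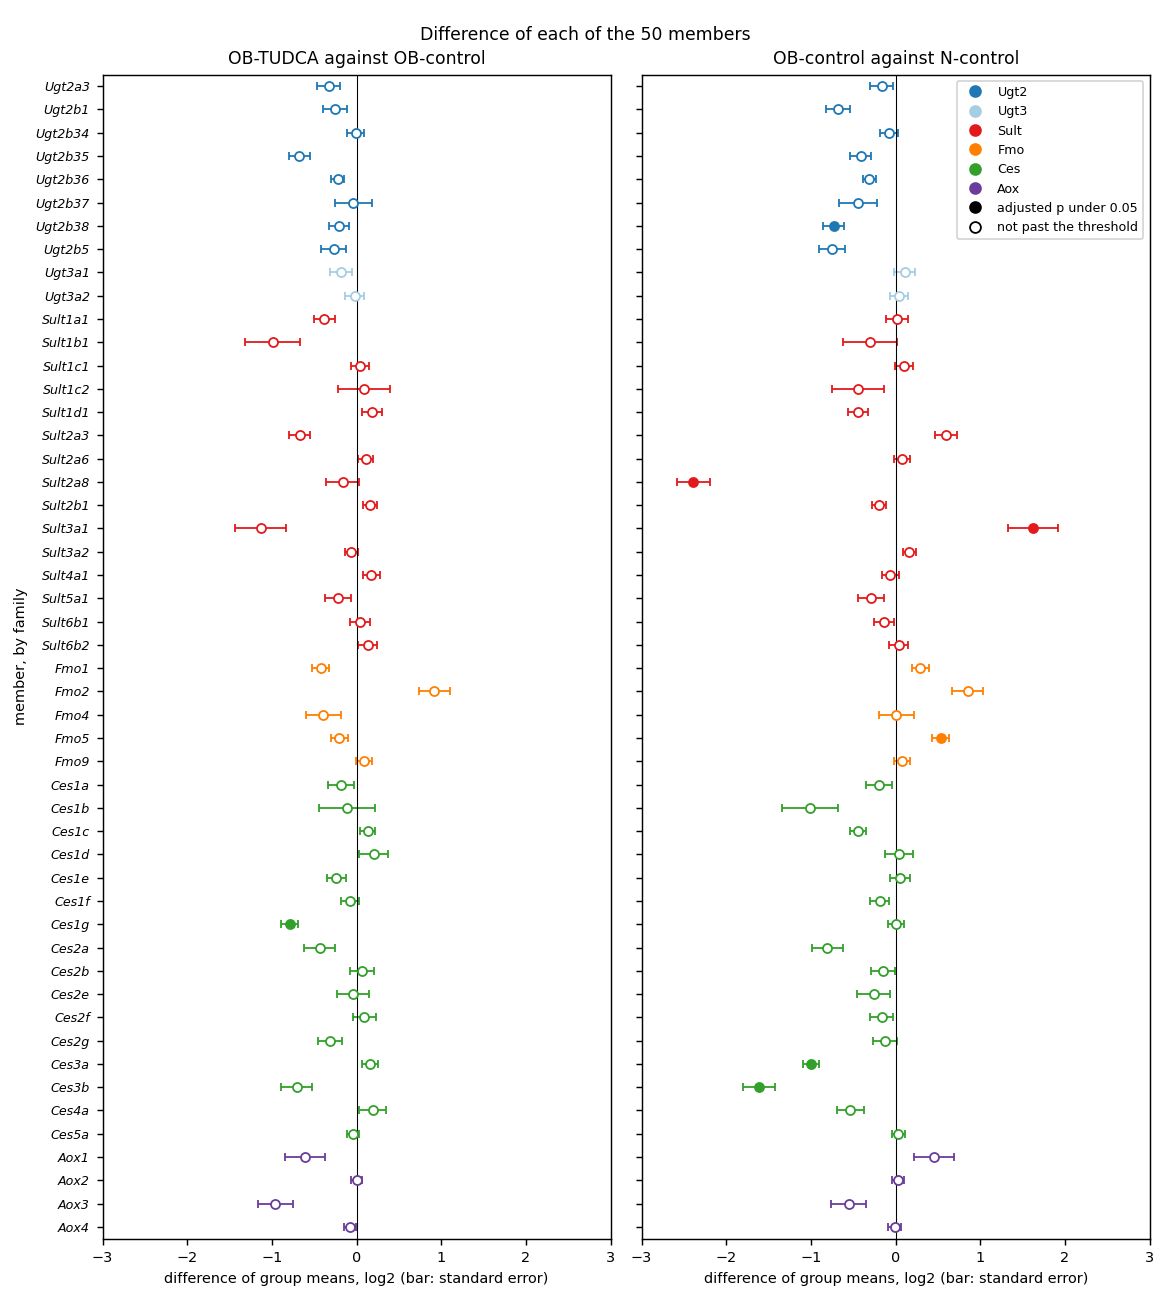
Difference of group means (log2, bars are the standard error, n = 3 arrays a group) for each of the 50 members, OB-TUDCA against OB-control (left panel) and OB-control against N-control (right panel), with filled points for an adjusted p under 0.05. The 8 Ugt2 genes lie at or left of 0 on both panels, and the points farthest from 0 are Sult2a8 at -2.39 and Sult3a1, whose N-control signals are among the lowest measured, at 1.62, both in the right panel.

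All 8 Ugt2 genes had their lowest mean in OB-TUDCA mice and their highest mean in N-control mice, and the median difference of the 7 Ugt2b genes between these groups was -0.93. Of the 8, 5 were called lower in OB-TUDCA than in N-control mice (62.5%, against 1.89% of all genes). Between OB-control and N-control 1 was called lower (12.5%, against 0.492% of all genes), and between OB-TUDCA and OB-control none (0.186% of all genes). In the last comparison 3 were lower at an unadjusted p under 0.05 (37.5%, against 5.72% of all genes). Ugt2b35 had signals of 9.50, 9.04 and 9.09 on OB-TUDCA arrays, 9.82, 9.83 and 10.01 on OB-control arrays and 10.28, 10.36 and 10.25 on N-control arrays. The 3 groups did not overlap, with the treated mice lowest. It fell 2.13-fold in OB-TUDCA relative to N-control mice (log2 -1.09 ± 0.12 SE, adjusted p = 0.0034), while OB-TUDCA against OB-control was -0.68 ± 0.12 (adjusted p = 0.0635) and OB-control against N-control -0.41 ± 0.12 (adjusted p = 0.195).

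Ugt2b38 read 8.36, 8.35 and 8.78 in OB-TUDCA, 8.74, 8.61 and 8.76 in OB-control and 9.43, 9.52 and 9.35 in N-control livers. Both ob/ob groups lay below every N-control array and overlapped each other. The difference was -0.94 ± 0.12 in OB-TUDCA against N-control (adjusted p = 0.0054) and -0.73 ± 0.12 in OB-control against N-control (adjusted p = 0.0269). The second call is not firm. It was lost in 7 of 18 other settings, among them the omission of any 1 array of either group compared, with an adjusted p of 0.113 without N-control replicate 2.

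Ugt2b5 had 10.25, 9.84 and 10.42 in OB-TUDCA, 10.23, 10.47 and 10.62 in OB-control and 11.14, 11.19 and 11.25 in N-control livers. Ugt2b1 had 10.37, 10.05 and 10.37 in OB-TUDCA, 10.31, 10.57 and 10.68 in OB-control and 10.96, 11.29 and 11.35 in N-control livers. In both genes every ob/ob array was below every N-control array. Ugt2b5 fell 2.03-fold (log2 -1.02 ± 0.15, adjusted p = 0.0094) and Ugt2b1 1.91-fold (log2 -0.93 ± 0.14, adjusted p = 0.0105) in OB-TUDCA relative to N-control mice. In OB-control relative to N-control mice the differences were -0.75 (adjusted p = 0.0594) and -0.68 (adjusted p = 0.0679).

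Ugt2b36 had 11.24, 11.23 and 11.39 in OB-TUDCA, 11.45, 11.46 and 11.62 in OB-control and 11.83, 11.85 and 11.78 in N-control livers. The order of the groups was that of Ugt2b35, without overlap, over a smaller span. Ugt2b36 fell 1.45-fold in OB-TUDCA relative to N-control mice (log2 -0.53 ± 0.08, adjusted p = 0.0101). Ugt2b34 stood apart from its neighbours. It had 11.33, 11.23 and 11.56 in OB-TUDCA, 11.33, 11.43 and 11.39 in OB-control and 11.34, 11.44 and 11.61 in N-control livers, and its difference was -0.01 ± 0.10 in OB-TUDCA against OB-control (adjusted p = 0.976). Against N-control it was -0.09 ± 0.10 in OB-TUDCA (adjusted p = 0.698) and -0.08 ± 0.10 in OB-control livers (adjusted p = 0.825). Without N-control replicate 2, the 5 Ugt2b calls in OB-TUDCA against N-control held, with adjusted p values of 0.0205 to 0.0481. The Ugt2b genes are close in sequence, and whether a probe set also picked up signal of a neighbour was not tested.

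The 2 Ugt3 genes, whose human counterparts use sugars other than glucuronic acid, varied little. Ugt3a2 had 10.96, 10.96 and 10.82 in OB-TUDCA, 10.90, 10.88 and 11.03 in OB-control and 10.67, 11.04 and 10.99 in N-control livers. Ugt3a1 had 9.90, 9.89 and 9.74 in OB-TUDCA, 9.91, 10.13 and 10.05 in OB-control and 9.63, 10.11 and 10.05 in N-control livers. No difference passed the test, and the largest was -0.19 ± 0.13 for Ugt3a1 in OB-TUDCA against OB-control (adjusted p = 0.612).

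Among the sulfotransferases, Sult2a8, a bile acid sulfotransferase of mouse liver, had the widest gap between lean and ob/ob mice of all 50 members. Its signals were 9.27, 8.51 and 8.98 in OB-TUDCA, 9.19, 8.73 and 9.33 in OB-control and 11.38, 11.48 and 11.56 in N-control livers. The ob/ob groups overlapped each other and lay more than 2 log2 units below the N-control arrays. Sult2a8 fell 5.87-fold in OB-TUDCA (log2 -2.55 ± 0.20, adjusted p = 0.00056) and 5.23-fold in OB-control mice (log2 -2.39 ± 0.20, adjusted p = 0.000621), each relative to N-control mice. OB-TUDCA against OB-control was -0.17 ± 0.20 (adjusted p = 0.794). Both calls held in all 18 other settings. Without N-control replicate 2 the adjusted p was 0.00572 for OB-TUDCA and 0.00586 for OB-control mice.

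Sult3a1, which sulfates amines and in mice is known as a transcript of female liver, went the other way at a low signal. It had 2.33, 2.81 and 2.20 in OB-TUDCA, 2.85, 3.66 and 4.23 in OB-control and 1.97, 1.95 and 1.95 in N-control livers. The OB-control arrays were the highest and the most spread, and the N-control arrays lay under 2.53, the 5th percentile of signals over all genes. Whether the N-control signal stood above background was not measured, so no fold is given. Sult3a1 rose in OB-control relative to N-control mice, with a measured log2 difference of 1.62 ± 0.30 (adjusted p = 0.0422), a call lost in 11 of 17 other settings. It held without OB-control replicate 1 and was lost without any 1 of the other 8 arrays, with adjusted p values of 0.0649 to 0.154 and 0.136 without N-control replicate 2. OB-TUDCA against OB-control was -1.13 ± 0.30 (adjusted p = 0.146), with no overlap, and OB-TUDCA against N-control 0.49 ± 0.30 (adjusted p = 0.428).

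Sult1b1, which acts on thyroid hormones and phenols, had 7.08, 6.57 and 5.53 in OB-TUDCA, 7.12, 7.61 and 7.44 in OB-control and 7.67, 7.78 and 7.64 in N-control livers. The groups did not overlap, but the treated mice differed among themselves by more than 1 log2 unit. The difference in OB-TUDCA was -0.99 ± 0.32 against OB-control (adjusted p = 0.24) and -1.30 ± 0.32 against N-control (adjusted p = 0.0665). Sult1a1, the main phenol sulfotransferase, had 9.98, 9.75 and 9.61 in OB-TUDCA, 10.04, 10.40 and 10.05 in OB-control and 10.09, 10.25 and 10.11 in N-control livers. Its treated arrays lay below the OB-control ones, by -0.38 ± 0.13 on the log2 scale and without a call (adjusted p = 0.244).

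Sult1d1, a sulfotransferase of catecholamines in mice, had 10.21, 9.90 and 9.96 in OB-TUDCA, 9.67, 10.06 and 9.80 in OB-control and 10.26, 10.35 and 10.25 in N-control livers. Both ob/ob groups lay below the N-control arrays, with differences of -0.26 ± 0.12 for OB-TUDCA (adjusted p = 0.282) and -0.44 ± 0.12 for OB-control mice (adjusted p = 0.15). Of the other 10 Sult genes, all but Sult1c2 had a mean signal under 5 and none was called in any comparison. Sult2a3, named after its values were seen, was likewise highest in OB-control mice, with 2.39, 2.47 and 2.07 in OB-TUDCA, 2.85, 3.18 and 2.92 in OB-control and 2.24, 2.46 and 2.47 in N-control livers. Its measured difference was -0.67 ± 0.13 in OB-TUDCA against OB-control (adjusted p = 0.0709) and 0.59 ± 0.13 in OB-control against N-control (adjusted p = 0.0833). The OB-TUDCA and N-control signals of Sult2a3 lay under 2.53, the 5th percentile over all genes. Whether they stood above background was not measured.

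All 5 flavin monooxygenases had a higher mean in OB-control mice, relative to N-control mice, but for Fmo4 and Fmo9 the difference was within its SE. An unadjusted p under 0.05 was found for 3 (60%), against 6.55% of all genes, and 1 (20%) was called higher, against 0.456%. OB-TUDCA mice had higher means than N-control mice for 3 of the 5. Fmo2, best known from lung, had 9.48, 9.28 and 9.02 in OB-TUDCA, 8.00, 8.73 and 8.29 in OB-control and 7.44, 7.40 and 7.64 in N-control livers. The 3 groups did not overlap, and the treated mice were highest. Fmo2 rose 3.40-fold in OB-TUDCA relative to N-control mice (log2 1.77 ± 0.18, adjusted p = 0.00245), the one member called higher in that comparison, and the adjusted p was 0.0152 without N-control replicate 2. The difference was 0.92 ± 0.18 in OB-TUDCA against OB-control (adjusted p = 0.0759) and 0.85 ± 0.18 in OB-control against N-control (adjusted p = 0.078).

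Fmo5, which oxygenates ketones and aldehydes, had 11.80, 11.85 and 11.87 in OB-TUDCA, 12.09, 12.01 and 12.04 in OB-control and 11.31, 11.54 and 11.69 in N-control livers. The OB-control arrays were highest and no groups overlapped. Fmo5 rose 1.45-fold in OB-control relative to N-control mice (log2 0.53 ± 0.10, adjusted p = 0.0424), but the call was lost in 12 of 18 other settings. It held without N-control replicate 3 and was lost without any 1 of the other 8 arrays, with adjusted p values of 0.0664 to 0.172 and 0.128 without N-control replicate 2. Fmo1 had 10.94, 10.75 and 10.82 in OB-TUDCA, 11.28, 11.29 and 11.21 in OB-control and 10.80, 10.95 and 11.16 in N-control livers. The OB-control arrays were again highest, and OB-TUDCA against OB-control was -0.42 ± 0.10 (adjusted p = 0.112) while OB-control against N-control was 0.29 ± 0.10 (adjusted p = 0.27). Fmo4 and Fmo9 were not called, with differences of 0.007 ± 0.20 (adjusted p = 0.998) and 0.07 ± 0.10 (adjusted p = 0.83) in OB-control against N-control.

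Of the 16 carboxylesterases, Ces1g, an esterase of the endoplasmic reticulum known in mice to act on hepatic lipids, was the one member called in OB-TUDCA against OB-control. It had 10.15, 10.17 and 10.12 in OB-TUDCA, 11.15, 10.82 and 10.85 in OB-control and 10.85, 10.99 and 10.98 in N-control livers. The treated mice were tightly grouped and lay below all other arrays, while OB-control and N-control overlapped. Ces1g fell 1.73-fold in OB-TUDCA relative to OB-control mice (log2 -0.79 ± 0.10, adjusted p = 0.0249) and by as much relative to N-control mice (log2 -0.79 ± 0.10, adjusted p = 0.00459), with 0.00 ± 0.10 between OB-control and N-control. The call against OB-control was lost in 6 of 18 other settings. Its adjusted p was 0.0585 without N-control replicate 2, 0.104 without OB-TUDCA replicate 2, 0.0812 without OB-TUDCA replicate 3 and 0.125 without OB-control replicate 1, and the difference stayed between -0.85 and -0.69.

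Ces3b, a liver carboxylesterase, had 9.56, 8.66 and 9.04 in OB-TUDCA, 9.88, 9.66 and 9.84 in OB-control and 11.48, 11.38 and 11.36 in N-control livers. No groups overlapped and the N-control arrays were far above the rest. Ces3b fell 5.01-fold in OB-TUDCA (log2 -2.33 ± 0.19, adjusted p = 0.000647) and 3.06-fold in OB-control mice (log2 -1.62 ± 0.19, adjusted p = 0.00557), each relative to N-control mice. OB-TUDCA against OB-control was -0.71 ± 0.19 (adjusted p = 0.149). Its neighbour in name Ces3a had 11.80, 11.57 and 11.82 in OB-TUDCA, 11.65, 11.55 and 11.53 in OB-control and 12.45, 12.64 and 12.64 in N-control livers. Here the ob/ob groups overlapped each other and both lay below the N-control arrays. Ces3a fell 1.80-fold in OB-TUDCA (log2 -0.85 ± 0.09, adjusted p = 0.00318) and 2.001-fold in OB-control mice (log2 -1.0005 ± 0.09, adjusted p = 0.00163) relative to N-control mice.

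Ces2a, a hydrolase of neutral lipids in mouse liver, had 9.01, 8.77 and 9.50 in OB-TUDCA, 9.60, 9.74 and 9.25 in OB-control and 10.38, 10.30 and 10.33 in N-control livers. Every ob/ob array was below the N-control arrays. Ces2a fell 2.36-fold in OB-TUDCA relative to N-control mice (log2 -1.24 ± 0.18, adjusted p = 0.0094), and OB-control against N-control was -0.81 ± 0.18 (adjusted p = 0.0964). The 6 calls of Ces3a, Ces3b, Ces2a and Ces1g against N-control held in all 18 other settings, with adjusted p values of 0.0061 to 0.0398 without N-control replicate 2. Ces1c, an esterase that mouse liver secretes into plasma, had 12.09, 12.04 and 12.01 in OB-TUDCA, 11.79, 12.11 and 11.84 in OB-control and 12.36, 12.35 and 12.36 in N-control livers. It was lower in both ob/ob groups without overlap, by -0.31 ± 0.09 in OB-TUDCA (adjusted p = 0.105) and -0.44 ± 0.09 in OB-control mice (adjusted p = 0.0641).

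Ces1d, the triacylglycerol hydrolase that mobilizes stored fat for secretion in mouse liver, is named here after its values were seen. It had 11.62, 11.70 and 11.66 in OB-TUDCA, 11.50, 11.13 and 11.76 in OB-control and 11.17, 11.41 and 11.69 in N-control livers. The groups overlapped, and it was the one carboxylesterase with a higher mean in OB-TUDCA than in N-control mice, by 0.24 ± 0.17 (adjusted p = 0.496). None of the other 10 carboxylesterases was called in any comparison. The Ces1 and Ces2 genes are close copies, and sharing of signal between them was not tested.

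Aox3 and Aox1 are the aldehyde oxidases of mouse liver. Aox3 had 9.16, 8.75 and 9.27 in OB-TUDCA, 10.04, 10.28 and 9.75 in OB-control and 10.28, 10.49 and 10.96 in N-control livers. The treated mice lay below all other arrays. Aox3 fell 2.86-fold in OB-TUDCA relative to N-control mice (log2 -1.52 ± 0.20, adjusted p = 0.0068), and the adjusted p was 0.0298 without N-control replicate 2. Against OB-control the difference was -0.96 ± 0.20 (adjusted p = 0.0865), and OB-control against N-control was -0.56 ± 0.20 (adjusted p = 0.307). Aox1 had 9.22, 8.55 and 9.14 in OB-TUDCA, 9.50, 9.49 and 9.75 in OB-control and 8.64, 9.20 and 9.53 in N-control livers. The treated arrays lay below the OB-control ones, by -0.61 ± 0.23 and without a call (adjusted p = 0.33), and the N-control arrays overlapped both. Aox2 and Aox4, which belong to skin, nose and eye glands, stayed between 3.78 and 3.89 and between 4.25 and 4.45 on all 9 arrays.

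**Figure D2:**
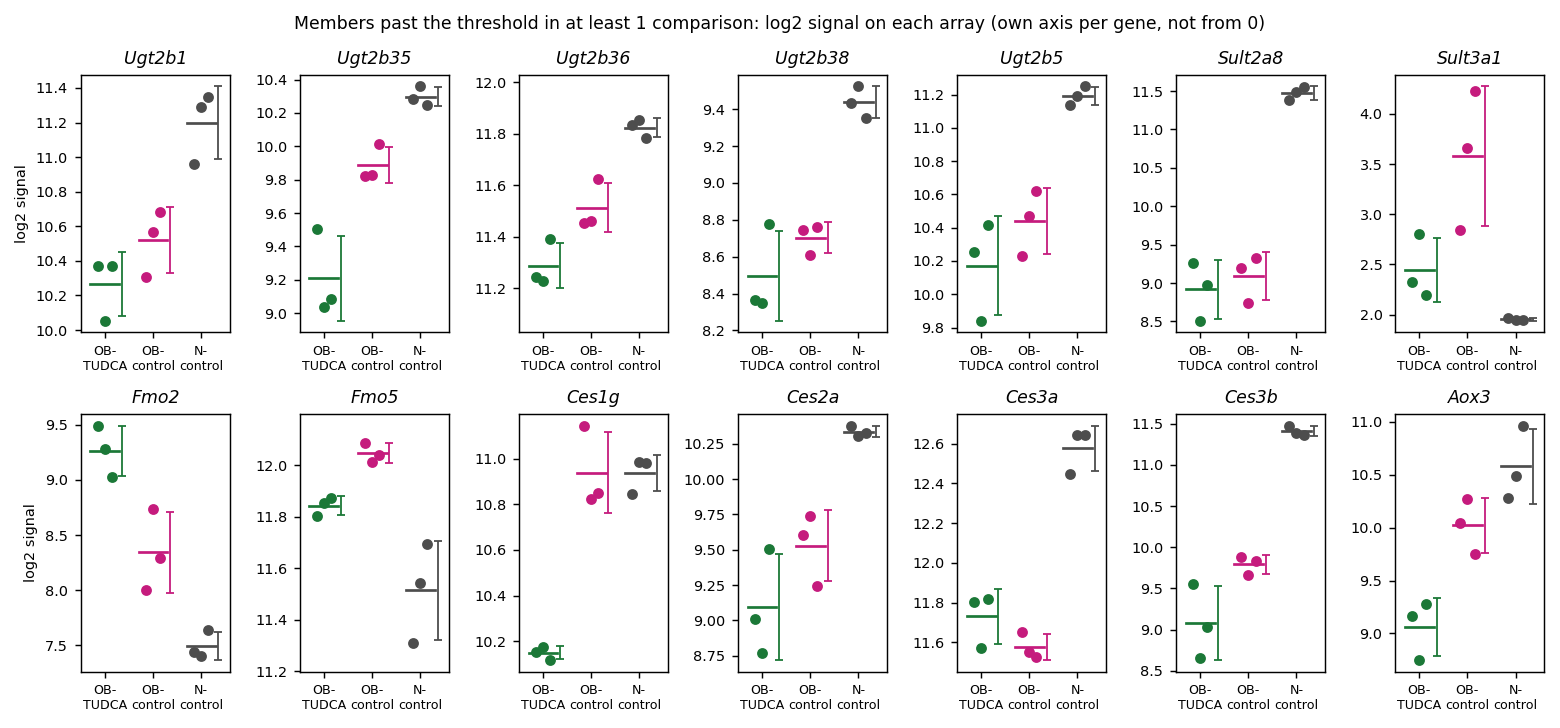
Log2 signal on each array (points), group mean (line) and SD (bar, n = 3) of the 14 members called in at least 1 comparison, with an axis of its own for each gene that does not start at 0. The N-control arrays are highest for the 5 Ugt2b genes, Sult2a8, Ces2a, Ces3a, Ces3b and Aox3, Fmo2 runs the other way, and Ces1g sets the OB-TUDCA arrays apart at 10.12 to 10.17.

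**Figure D3:**
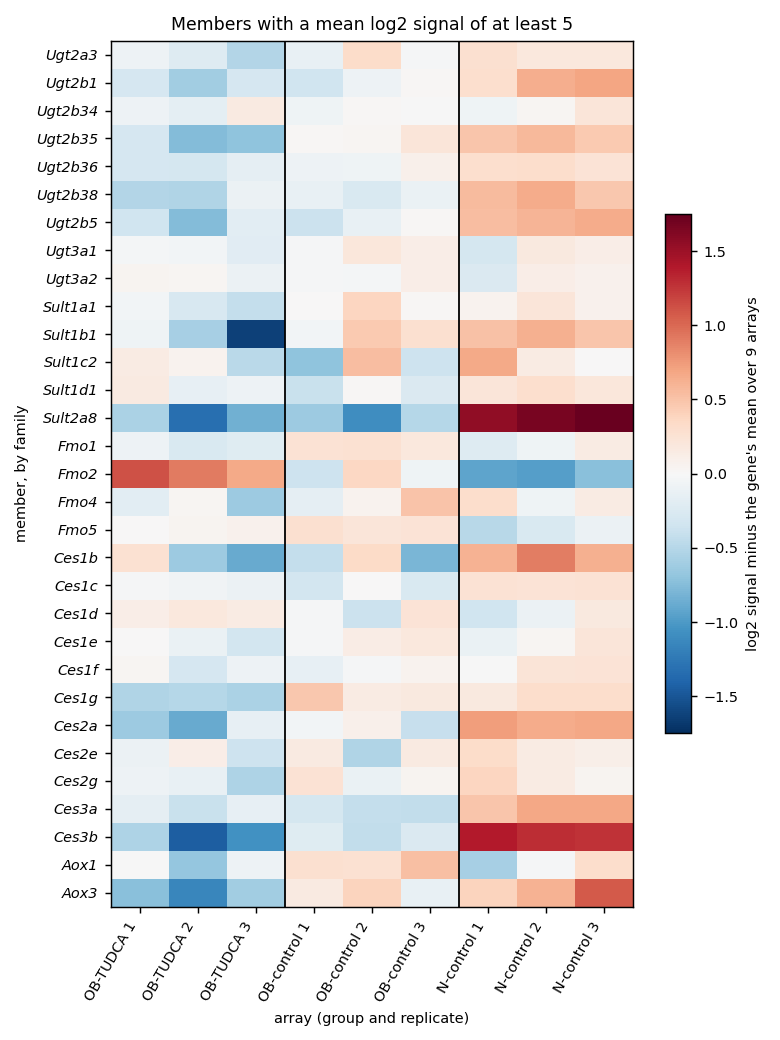
Log2 signal minus the gene's mean over the 9 arrays (colour, red above and blue below the mean) for the 31 members with a mean signal of at least 5, with arrays in columns by group. Deviations run from -1.63, for Sult1b1 in OB-TUDCA replicate 3, to 1.73, for Sult2a8 in N-control replicate 3, and N-control replicate 2 looks like the other N-control arrays in these genes.

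Genes that supply, transport and control the same pathways were taken as 8 lists. Their calls were not examined in other settings or without N-control replicate 2. Those close to the threshold are not firm, as the member calls of Fmo5 and Sult3a1 at 0.0424 and 0.0422 were lost in most other settings. Their calls stand beside 1.89% of all genes called lower and 1.35% higher in OB-TUDCA against N-control, 0.492% and 0.456% in OB-control against N-control, and 0.186% and 0.115% in OB-TUDCA against OB-control. Of the 8 genes for UDP-glucuronic acid supply and glucuronide cleavage, none was called in any comparison. Ugdh, which makes UDP-glucuronic acid, had 10.91, 10.37 and 11.16 in OB-TUDCA, 11.04, 11.03 and 11.29 in OB-control and 10.95, 11.04 and 10.9998 in N-control livers. Pgm1, a phosphoglucomutase on the way to it, had 10.37, 10.32 and 10.44 in OB-TUDCA, 10.40, 10.51 and 10.41 in OB-control and 10.09, 10.17 and 10.23 in N-control livers. Of the 8 measured genes for PAPS supply and sulfate ester cleavage, Papss2, a PAPS synthase, was the one called. It had 9.72, 8.91 and 9.53 in OB-TUDCA, 10.72, 10.48 and 10.22 in OB-control and 10.78, 10.56 and 10.27 in N-control livers, with the treated mice below all others. Papss2 fell 2.22-fold in OB-TUDCA relative to N-control mice (log2 -1.15 ± 0.22, adjusted p = 0.0248), and the median of the 8 genes was -0.15.

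Of 6 genes for the molybdenum cofactor that Aox enzymes carry, 2 were called, both lower in OB-TUDCA than in N-control mice, with a list median of -0.03. Gphn (gephyrin), which inserts the molybdenum, had 8.50, 8.05 and 8.47 in OB-TUDCA, 9.27, 9.21 and 8.94 in OB-control and 9.28, 9.23 and 9.42 in N-control livers. Gphn fell by 0.97 on the log2 scale (SE 0.14, adjusted p = 0.00783). Mocos, which adds the sulfur that the oxidases need, had 7.11, 6.87 and 7.003 in OB-TUDCA, 7.40, 7.32 and 7.61 in OB-control and 7.34, 7.55 and 7.65 in N-control livers. It fell by 0.52 (SE 0.11, adjusted p = 0.0411). In both genes, as in Aox3, the treated mice lay below all other arrays. Their OB-control and N-control arrays overlapped. Those of Aox3 did not, but the gap was narrow, from 10.2751 in OB-control replicate 2 to 10.2806 in N-control replicate 1. The other 4 genes of the list were not called. Of 3 measured genes for flavin supply and electron transfer, Rfk, the kinase that makes FMN, was called, as higher in OB-control relative to N-control mice (log2 0.39 ± 0.07, adjusted p = 0.0466).

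Of 9 other conjugating transferases, Tpmt, a methyltransferase of thiopurines, was called lower in OB-TUDCA than in both other groups. It had 9.39, 9.16 and 9.06 in OB-TUDCA, 10.13, 9.90 and 10.10 in OB-control and 9.91, 9.90 and 9.84 in N-control livers. The difference was -0.84 ± 0.10 against OB-control (adjusted p = 0.0249) and -0.68 ± 0.10 against N-control (adjusted p = 0.0101). Baat, which joins bile acids to taurine or glycine, fell by 0.43 in OB-TUDCA relative to N-control mice (SE 0.09, adjusted p = 0.0442). Of 8 other hydrolases, Aadac, an esterase and deacetylase, was called. It fell by 0.57 in the same comparison (SE 0.10, adjusted p = 0.0188).

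Of 9 transporters of conjugates, 4 were called in OB-TUDCA against N-control and 2 of these in OB-control against N-control. Slco1a1, an uptake carrier of bile acids and conjugated steroids, had 3.9997, 3.28 and 3.62 in OB-TUDCA, 2.87, 3.09 and 2.98 in OB-control and 10.40, 10.15 and 10.19 in N-control livers. It fell in both ob/ob groups relative to N-control mice, with measured log2 differences of -6.62 ± 0.16 in OB-TUDCA (adjusted p = 1.66e-07) and -7.27 ± 0.16 in OB-control mice (adjusted p = 6.95e-08). The OB-control signals lay under 3.57, the 25th percentile over all genes, and whether they stood above background was not measured. Abcc4, an export pump for conjugates, rose by 1.29 ± 0.28 in OB-TUDCA (adjusted p = 0.0441) and by 1.63 ± 0.28 in OB-control mice (adjusted p = 0.0353). In OB-TUDCA against N-control mice the uptake carriers Slco1b2 and Slc22a7 fell by 0.77 (SE 0.12, adjusted p = 0.0101) and by 1.77 (SE 0.35, adjusted p = 0.0266). Of 12 receptors, Hnf4a, a nuclear receptor of hepatocytes, was called, as higher in OB-TUDCA than in N-control mice (log2 0.58 ± 0.13, adjusted p = 0.0451).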

How the data were processed

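Liver RNA of 9 mice (3 OB-TUDCA, 3 OB-control, 3 N-control; biological replicates per the labels, 3 of the mice the methods give for each group) was hybridized to Mouse Gene 1.0 ST arrays. Affymetrix Expression Console (version not given in the sources used here) was used by the authors to make a log2 signal of each probe set with RMA, and these deposited values were used without further normalization. RMA makes the arrays' distributions alike, so a change in total RNA is not seen. Of 35556 probe sets, 21789 carry 1 symbol, 1621 several and 12146 none in the platform annotation. The first were averaged per symbol, and no filter on signal was applied. Updating symbols through RefSeq changed no member.

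Groups were compared with limma 3.58.1 in R 4.3.3 (data.table version 1.17.8), with 6 residual and 3.33 prior degrees of freedom. The fit was tested on simulated data. Figures were drawn with matplotlib 3.10.9 in Python 3.11.15. The study's own SAM selection was not repeated. Arrays measure no read depth, and their number limits the precision. No detection calls were used.

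The members, lists and tests were chosen with earlier results of these data known. Genes named are all members past the threshold, per family the 2 with the highest signal and the one with the largest difference in each comparison, the members the study names as changed, and in each list the genes called or, with none, the 2 with the highest signal. Others are named as chosen later.

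Alternatives were each array left out, a replicate block, array weights, only the arrays of the groups compared, each probe set on its own, the genes of lowest signal left out, median centring, quantile normalization once more, a trended robust prior, the pancreatic acinar mean as a covariate, updated symbols and fold limits without a p.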

Additional observations from a re-analysis of the deposited data

Results flagged for a closer look

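Probe sets with several symbols were left out of the members, and 2 of the 6 such probe sets of these families differed between the ob/ob controls and the N-control mice. The probe set shared by Sult2a2 and Sult2a1, hydroxysteroid and bile acid sulfotransferases, had 6.00, 5.35 and 4.39 in OB-TUDCA, 6.11, 7.73 and 7.62 in OB-control and 2.85, 3.21 and 2.80 in N-control livers. The groups of OB-control and N-control mice were far apart, with a measured log2 difference of 4.20 ± 0.47 (adjusted p = 0.00529). OB-TUDCA against N-control was 2.29 ± 0.47 (adjusted p = 0.0353) and OB-TUDCA against OB-control -1.91 ± 0.47 (adjusted p = 0.141). The probe set shared by Sult2a2, Sult2a5, Sult2a4 and Sult2a1 had 4.19, 3.94 and 3.38 in OB-TUDCA, 4.88, 5.501 and 5.54 in OB-control and 2.93, 3.00 and 3.13 in N-control livers. Its measured difference was 0.82 ± 0.22 in OB-TUDCA against N-control (adjusted p = 0.0909) and 2.29 ± 0.22 in OB-control against N-control (adjusted p = 0.0024). In OB-TUDCA against OB-control it was -1.47 ± 0.22 (adjusted p = 0.0493). The last value lies just under the threshold. Both probe sets lie outside the 19938 genes, as they carry several symbols. Their SE and adjusted p values come from a separate limma fit to single probe sets. These adjusted p values are therefore not directly comparable with those of the members. Neither probe set was examined in other settings or without N-control replicate 2. The N-control signals of both lay under 3.57, the 25th percentile over all genes, and whether they stood above background was not measured. In both probe sets the OB-TUDCA arrays lay between the other groups without overlap, and the values belong to no single gene. Which of the genes gave the signal was not tested.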

How the results depend on the processing

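With 3 arrays a group the calls near the threshold move. Counts of called members are given for other settings where they differ from the counts above by more than 1.5 times. In OB-TUDCA against OB-control the count of lower members was 2 with the genes of lowest signal left out, 0 with only the arrays of the groups compared, 0 with the acinar mean as a covariate and 8 by a fold of at least 1.5 with no p, and it was 0 to 3 with 1 array left out. Without N-control replicate 2, OB-TUDCA replicate 2, OB-TUDCA replicate 3 or OB-control replicate 1 it was 0, and without OB-TUDCA replicate 1 it was 3. The count of higher members was 0 to 1 with 1 array left out. In OB-control against N-control the count of higher members was 4 with array weights and 1 by a fold of at least 2.3 with no p. It was 1 with the genes of lowest signal left out, 1 with median centring, 0 with only the arrays of the groups compared, 0 with the acinar covariate and 0 with the replicate block, and 0 to 1 with 1 array left out. The count of lower members there was 8 with array weights and 8 by fold. In OB-TUDCA against N-control, 11 to 13 members were lower and 1 was higher with 1 array left out.

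The median difference of the members was -0.169 to -0.071 in OB-TUDCA against OB-control, -0.15 to -0.10 in OB-control against N-control and -0.32 to -0.18 in OB-TUDCA against N-control with 1 array left out, and -0.19 in the last with a second quantile normalization. The SD of the members' median between arrays of a group was 0.0362, and 9 of 36 such medians, the second normalization among them, moved by more. No direction changed. The cause of these shifts was not tested. The labels do not say that a replicate number marks a shared batch or litter. The deviations of same-numbered arrays correlated at -0.08 to 0.21 and those of different numbers at -0.30 to 0.23. Of the 9 arrays, 7 correlated best with their own number, but the highest correlation was between different numbers. Whether the number marks a shared batch or litter was not tested. With the replicate block the calls of Fmo5 (adjusted p = 0.0575) and Sult3a1 (adjusted p = 0.0527) were lost and the other 17 of the members held.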

Other observations

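The Ugt1 genes share their last exons, and the probe set of 8 Ugt1a symbols, which include the bilirubin enzyme Ugt1a1, had 10.89, 10.84 and 10.90 in OB-TUDCA, 10.89, 10.80 and 11.05 in OB-control and 10.86, 10.89 and 10.93 in N-control livers. No difference between groups exceeded 0.04 on the log2 scale, with an SE of 0.08. The probe set shared by Ugt2a2 and Ugt2a1 stayed between 2.302 and 2.604 on all 9 arrays. The 2 probe sets shared by Ugt3a2 and Ugt3a1 lay at 11.39 to 11.64 and at 11.04 to 11.29, with differences between groups of at most 0.13.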
